A study of Homo sapiens with 5 samples.

Results

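The HOX genes are the 39 protein-coding genes of the HOXA, HOXB, HOXC and HOXD clusters, and they were examined here for peaks of trimethylated histone H3 lysine 9 (H3K9me3) in HEK293T cells, an established line from human embryonic kidney. Members were taken from the RefSeq gene table of GRCh38.p14 as every protein-coding gene whose symbol is HOXA, HOXB, HOXC or HOXD followed by a number only, 39 of 20037 protein-coding genes on chromosomes 1 to 22, X and Y. There are 11 in HOXA on chromosome 7, 10 in HOXB on chromosome 17, 9 in HOXC on chromosome 12 and 9 in HOXD on chromosome 2. The labels describe 5 samples of chromatin immunoprecipitation and sequencing (ChIP-seq): H3K9me3 libraries of cells with the genotypes WT, EV and KD, and input libraries of WT and EV cells. EV is taken to be the control with an empty vector. KD is taken to be the knockdown named KCNQ1OT1_K in the design text, after KCNQ1OT1, a long non-coding RNA of an imprinted domain. The meaning of the suffix, the knockdown method, the vector, and whether the cells were a clone or a pool are not stated in these sources, and RNA was not measured in these files. Of the 3 deposited peak lists, 1 carries EV and 1 carries KD in its name, while the remaining list carries no genotype and was assigned to no group.

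HOX proteins are homeodomain transcription factors that assign position along the body axis and, for the HOXA and HOXD clusters, along the limb. Genes of a cluster lie in the order in which they act, from paralog group 1 at the anterior end to group 13 at the posterior end, and genes with the same number in different clusters are paralogs. In cells that do not use them, HOX clusters are classically held silent by Polycomb complexes and the mark H3K27me3, while H3K9me3 is best known from heterochromatin over repeats, satellites and zinc finger gene clusters.

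With 1 library per group, differences between EV and KD could not be checked against replicates, and conditions were not tested against each other. On chromosomes 1 to 22, X and Y the EV list held 24665 peaks over 50.5 Mb, the KD list 12650 over 20.6 Mb, and the list without a genotype 14362 over 29.8 Mb. The genome-wide KD/EV ratio of covered length was therefore 0.408. The lists hold no read counts, so the depth is unknown, and both the number and the width of peaks can vary with it. Shares are followed by their exact Clopper-Pearson 95% interval, which covers counting error over peaks or genes only and treats neighbouring peaks as independent.

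Within the 4 clusters, H3K9me3 peaks in gene bodies were found at HOXD genes and at none of the 30 HOXA, HOXB and HOXC genes. At least 1 bp of the gene body was covered at 5 of 39 members in EV (12.8%, interval 4.30 to 27.4), 6 in KD (15.4%, interval 5.86 to 30.5) and 0 in the list without a genotype. The same criterion was met by 24.5% of all protein-coding genes in EV, 11.5% in KD and 7.26% in the list without a genotype. Both the EV and the KD background lay inside the HOX interval of that list. A peak in both EV and KD was found at 5 members, and at 9.85% of all protein-coding genes. HOX gene bodies are short, with a median of 3785 bp against 24115 bp for all protein-coding genes, and among protein-coding genes of at most 10 kb the shares were 7.04%, 5.92% and 2.23%. For the 30 HOXA, HOXB and HOXC genes the interval was 0 to 11.6 in each list, which holds these short-gene shares. All members with a peak were in HOXD, where 5 of 9 had one in EV and 6 of 9 in KD, and this cluster is singled out below with those values known.

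**Figure D1:**
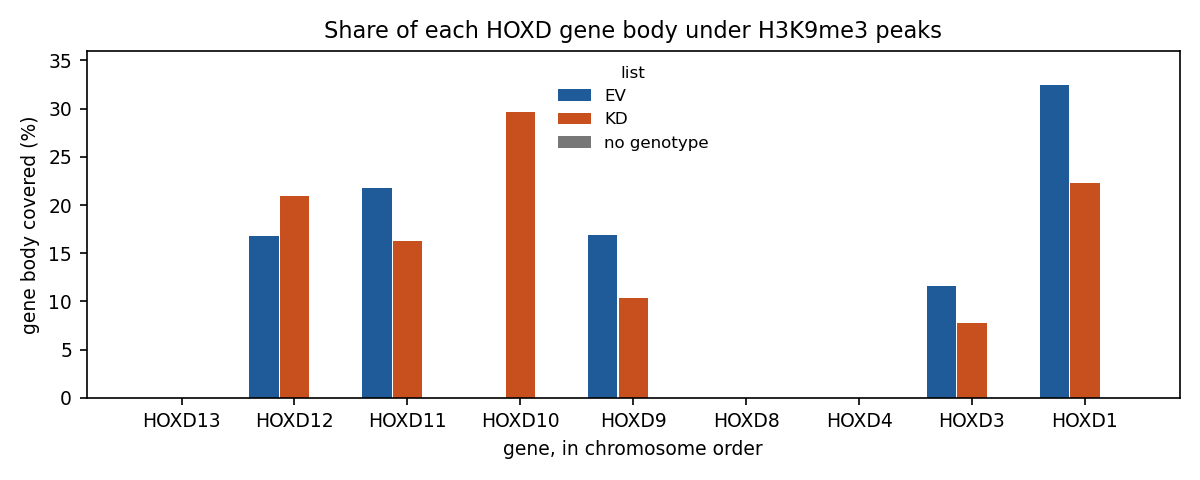
Share of each HOXD gene body under H3K9me3 peaks, in percent (bars from 0), for the EV list, the KD list and the list without a genotype, with genes in their order along chromosome 2. HOXD13, HOXD8 and HOXD4 are at 0 in all 3 lists, and the list without a genotype is at 0 throughout.

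The HOXD cluster, from HOXD13 to HOXD1, spans chr2:176087487-176190907 (GRCh38), or 103.4 kb. It held 8 EV peaks covering 7089 bp, 7 KD peaks covering 7558 bp, and 0 peaks of the list without a genotype. Peaks made up 6.85% of the span in EV and 7.31% in KD, against 0.900% and 0.292% of the whole of chromosome 2. KD thus covered 1.07 times the EV length in the cluster, and 0.408 times over the genome as a whole. This ratio lay on either side of 1 depending on the setting, at 0.978 with a −log10 q of at least 2, 1.85 with a fold enrichment of at least 3 and 1.55 with equal peak numbers. For all peaks the same settings gave 0.391, 0.495 and 0.560. Peaks took up 11.1% of the HOXD gene bodies in EV and 10.0% in KD, and 2.57% and 4.58% of the sequence between them. In the bodies alone EV covered more, 5758 bp against 5188 bp in KD. The widest KD peak has 2776 bp, and the EV peak inside it 534 bp. By length, peaks covered 1.59% of the bodies of protein-coding genes of at most 10 kb in EV and 1.08% in KD. For homeobox genes outside the clusters the values were 2.82% and 2.22%, and for all protein-coding genes 0.684% and 0.201%.

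**Figure D2:**
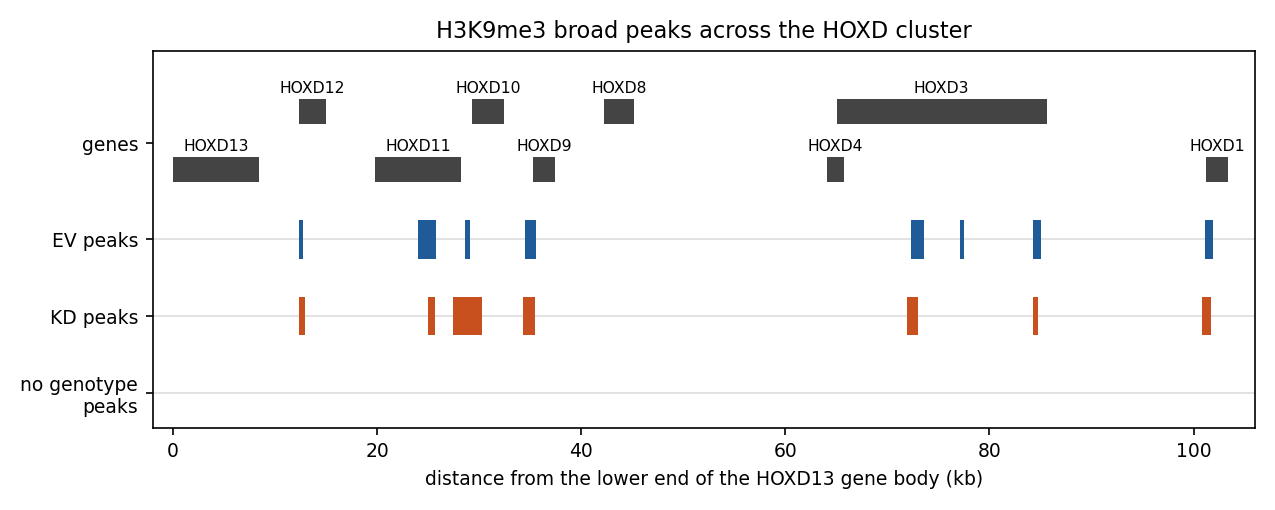
Positions of the H3K9me3 broad peaks along the HOXD cluster, in kb from the lower end of the HOXD13 gene body, with gene bodies on top and 1 track per peak list. EV and KD peaks overlap each other, with differing edges and widths, apart from 1 EV peak in HOXD3. The track of the list without a genotype is empty.

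The posterior HOXD genes, which pattern the limb and the lower trunk, formed a run of 4 neighbours, HOXD12 to HOXD9, with a peak in or just before each. HOXD12, HOXD10 and HOXD1 were the members with a RefSeq promoter entry that peaks of both lists overlapped, and HOXD9 has no entry in that table. Their promoters are printed because the peak edges fall inside them. Each runs 5′ to 3′ on the plus strand, from 250 bases before to 50 bases after the gene's start (RefSeq, GRCh38.p14), and capitals mark the bases under peaks of both EV and KD. The HOXD12 promoter is chr2:176099545-176099844, the HOXD10 promoter chr2:176116528-176116827 and the HOXD1 promoter chr2:176188418-176188717.
HOXD12: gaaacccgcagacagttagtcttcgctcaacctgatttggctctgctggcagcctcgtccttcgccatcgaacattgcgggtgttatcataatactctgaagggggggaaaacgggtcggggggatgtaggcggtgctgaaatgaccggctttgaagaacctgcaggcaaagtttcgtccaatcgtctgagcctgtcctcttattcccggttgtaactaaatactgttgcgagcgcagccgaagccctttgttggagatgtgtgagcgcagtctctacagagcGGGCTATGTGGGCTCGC
HOXD10: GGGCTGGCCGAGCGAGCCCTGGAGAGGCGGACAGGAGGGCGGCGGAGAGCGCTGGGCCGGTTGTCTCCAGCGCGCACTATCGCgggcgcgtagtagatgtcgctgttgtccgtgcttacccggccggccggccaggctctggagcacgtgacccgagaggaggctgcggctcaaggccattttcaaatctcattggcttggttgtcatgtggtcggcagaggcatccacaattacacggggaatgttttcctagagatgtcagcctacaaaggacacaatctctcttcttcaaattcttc
HOXD1: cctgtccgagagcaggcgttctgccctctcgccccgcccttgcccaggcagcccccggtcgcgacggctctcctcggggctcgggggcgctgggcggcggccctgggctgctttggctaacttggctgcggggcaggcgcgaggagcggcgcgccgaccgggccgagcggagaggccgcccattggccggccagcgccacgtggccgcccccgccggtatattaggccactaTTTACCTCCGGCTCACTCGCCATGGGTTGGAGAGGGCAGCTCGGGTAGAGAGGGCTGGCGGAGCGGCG
Peaks of both lists covered 17 bases of the HOXD12 promoter, 83 of the HOXD10 promoter and 68 of the HOXD1 promoter. KD peaks covered all 300 bases of the HOXD10 and HOXD1 promoters. Of 8 HOXD genes in the promoter table, 3 had an EV peak there and 3 a KD peak, against 1.72% and 1.1% of all 35116 promoters in the table. None of the 19 promoter entries of HOXA, HOXB and HOXC genes was touched by any list. Most of these entries are of HOXA genes. HOXB has only HOXB1 there, and HOXC only HOXC4 and HOXC5, which share the same window.

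The dinucleotide CG, counted in these 300-base windows, was present in 96% of all promoters, with a median of 14 per window. It occurred 19 times in the HOXD12 promoter, 23 times at HOXD10 and 36 times at HOXD1. HOXD promoters without a peak ranged from 4 at HOXD4 to 34 at HOXD8, and those of the other clusters from 0 to 44. CG counts of promoters with and without a peak therefore overlapped.

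HOXD12, a gene of the posterior limb bud, carried a narrow peak at its start in both lists. The EV peak, chr2:176099778-176100246, covered 452 bp of the gene (16.8%) and 17 bp before it. The KD peak, chr2:176099828-176100391, lay wholly inside and covered 564 bp (20.9%). The peaks shared 419 bp, and their edges differed by less than the fragment size of 200 to 500 bp given in the labels. The fold enrichment over the caller's background was 3.12 for the EV peak and 3.83 for the KD peak, each on its own list's scale, with −log10 p values of 5.50 and 5.57.

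HOXD11, which acts with its paralog HOXA11 in the forearm and kidney, was covered to 21.7% in EV and 16.3% in KD, away from its annotated start. The EV peak, chr2:176111443-176113266, was the widest EV peak of the cluster at 1824 bp and began 4163 bp into the gene body. The KD peak at chr2:176112496-176113123 lay entirely within it. A further KD peak reached 742 bp into the upper end of the gene body. The gene table joins a coding and a predicted non-coding transcript of HOXD11 into 1 span, and exon and intron positions were not used here, so the part of the gene under these peaks is not resolved.

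HOXD10, known for its role in hindlimb motor neurons and foot development, had the widest peak of the cluster in KD. This KD peak, chr2:176114938-176117713, extended over 2776 bp, with an own-list fold of 4.82 and −log10 p of 6.49. It ran from the upper end of HOXD11 across the HOXD10 promoter and 936 bp into HOXD10, or 29.6% of the gene body. The EV list had a 534 bp peak inside the same stretch, chr2:176116077-176116610, with a fold of 3.77 and a −log10 p of 5.77. It ended 168 bp before HOXD10, so the gene body itself counted as uncovered in EV. Both lists had a peak between HOXD11 and HOXD10, and the gene body value turned on where that peak ended.

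HOXD9, the next posterior gene, had a peak across its lower end in both lists. The EV peak, chr2:176121957-176123093, had 375 bp in the gene (16.9%) and 762 bp before it. The KD peak, chr2:176121792-176122947, had 229 bp in the gene (10.3%) and 927 bp before it. They shared 991 bp, the longest stretch common to both lists in the cluster. Own-list folds were 3.27 in EV and 4.39 in KD.

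After HOXD9, both lists left a stretch of 36.3 kb without a peak, chr2:176123094-176159385, the longest peak-free gap between peaks of the cluster. HOXD8 and HOXD4, genes of the middle of the cluster, lie inside it and had no peak in any list. HOXD13, whose mutations cause synpolydactyly, also had none.

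HOXD3, an anterior gene with a role in the neck vertebrae, was covered to 11.6% in EV by 3 peaks and to 7.72% in KD by 2. The peaks at chr2:176159809-176161042 in EV and chr2:176159386-176160492 in KD shared 684 bp. Near the upper end of the gene, the KD peak chr2:176171739-176172220 lay inside the EV peak chr2:176171724-176172492. That KD peak had a −log10 p of 6.84, the highest in the cluster for its list. The EV peak between them, chr2:176164642-176165019, was the only EV peak of the cluster without a KD partner. It was also the narrowest EV peak there, at 378 bp, and had the lowest −log10 p, 4.12.

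HOXD1, the most anterior HOXD gene, had the largest covered share of any HOX gene in EV, 32.4%, and 22.3% in KD. The EV peak, chr2:176188650-176189393, had 726 bp in the gene and 18 bp before it. The KD peak, chr2:176188323-176189167, had 500 bp in the gene and 345 bp before it, and 518 bp were common to both. The 59-base hairpin of MIR7704, a microRNA gene at chr2:176188843-176188901, lay wholly under both peaks. Its mature sequence is shown, with the seed (bases 2 to 8) in capitals, because it was the one microRNA of the 4 clusters under a peak.
hsa-miR-7704: cGGGGUCGgcggcgacgug
The other microRNA genes of the clusters had no peak in any list, among them MIR10B in HOXD and MIR196A2 in HOXC. HAGLR, a long non-coding RNA gene that overlaps the HOXD1 start, was covered to 1.96% in EV and 4.03% in KD by the same peaks.

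The remaining clusters had at most a single peak, between genes and in EV only. In HOXA the EV peak chr7:27192532-27193305 lay 1059 bp from HOXA13, a limb and urogenital gene, and 7300 bp from HOXA11. It had a fold of 3.08 and a −log10 p of 5.06. In HOXB the EV peak chr17:48662305-48662770, with a −log10 p of 3.47, lay 35947 bp from HOXB9 and 61993 bp from HOXB13, within LINC02086, a long non-coding RNA gene. Neither was overlapped by KD. HOXC, which harbours HOTAIR, a non-coding RNA known for its reported action on the HOXD cluster, had 0 peaks in all 3 lists.

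Peaks were denser in HOXD than around it and in the other clusters. HOXD held 7.74 EV peaks and 6.77 KD peaks per 100 kb, against 0.596 and 0.266 on the whole of chromosome 2. In the 1 Mb on each side of the cluster the densities were 0.700 in EV and 0.100 in KD. In EV, HOXA had 0.934 and HOXB 0.499 peaks per 100 kb, where chromosomes 7 and 17 had 0.884 and 1.20.

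**Figure D3:**
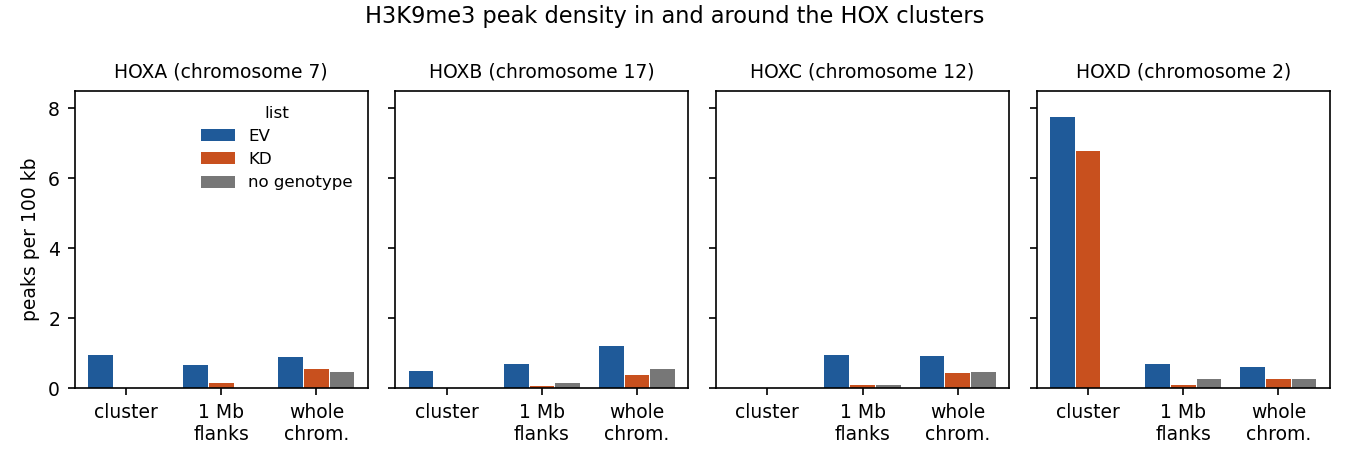
H3K9me3 peaks per 100 kb (bars from 0) in each HOX cluster, in the 1 Mb on each side of it, and on its whole chromosome, for the EV list, the KD list and the list without a genotype. HOXD stands at 7.74 in EV and 6.77 in KD, and no other bar exceeds 1.20.

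The HOXD peaks were of middling strength within their lists. The 8 EV peaks had −log10 p values from 4.12 to 5.77 with a median of 5.50, and the EV list as a whole had a median of 4.67. Each exceeded between 38.2% and 64.2% of all EV peaks. The 7 KD peaks ran from 4.11 to 6.84 with a median of 5.73, against 4.98 for the whole list, and each exceeded between 25.4% and 75.0% of all KD peaks. Fold enrichment ran from 2.68 to 3.77 in EV and from 2.92 to 4.82 in KD. These folds and p-values are the authors' and belong to their own list, so no difference is read between them.

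**Figure D4:**
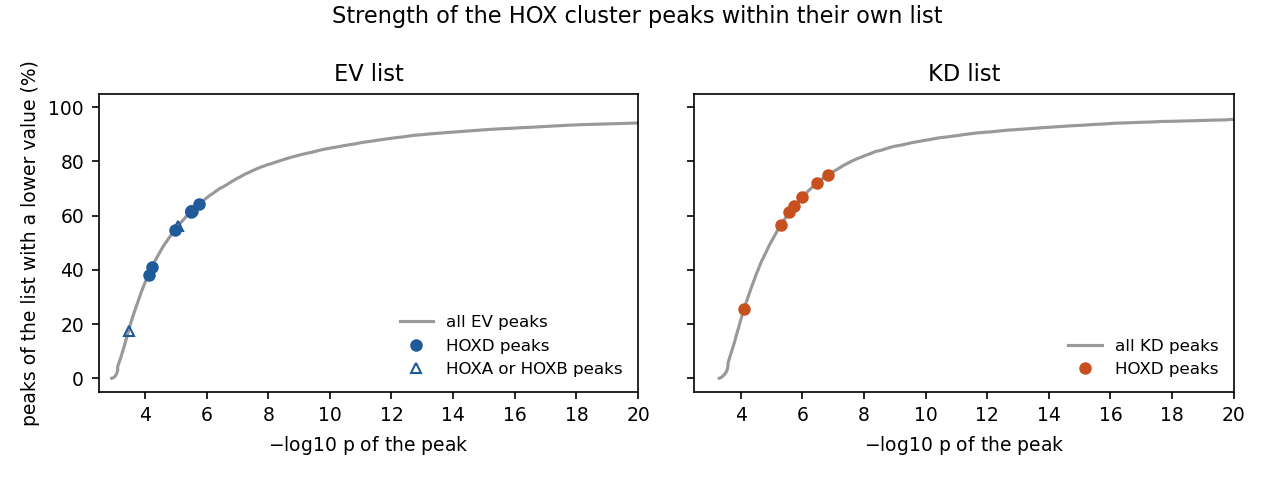
Cumulative share of peaks (%) by −log10 p for all EV peaks (left) and all KD peaks (right), shown up to 20, with the HOX cluster peaks as symbols. EV symbols in HOXD lie between 4.12 and 5.77, where 4 of them nearly coincide, and KD symbols between 4.11 and 6.84.

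Most HOXD peaks of EV had a partner in KD, as did most protocadherin and homeobox genes with an EV peak. Of the 8 EV peaks in HOXD, 7 were overlapped by KD (87.5%, interval 47.3 to 99.7). The cluster was singled out with its peaks in both lists known, so that share is no test against a background. Among all EV peaks with a −log10 p in the same range, 29.3% were overlapped (1877 of 6407). All 7 KD peaks were overlapped by EV (interval 59.0 to 100), against 87.1% of KD peaks in the same strength range. By gene, 5 of 5 HOXD genes with an EV peak also had a KD peak, as did 46 of 50 clustered protocadherin genes and 28 of 48 homeobox genes outside the clusters. Among all protein-coding genes, 1973 of 4910 did, and among those of at most 10 kb, 242 of 401 did. Protocadherin bodies overlap and share peaks, so those 50 genes are not separate observations. Whether HOXD differs from the protocadherin and homeobox families was not tested. Bases under both lists came to 4256 of the 10391 bp covered by either list in the cluster (41.0%). With the HOXA and HOXB peaks included, 7 of 10 EV peaks had a KD partner (interval 34.8 to 93.3).

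By covered share, 2 members were higher in KD (HOXD10 and HOXD12), 4 were higher in EV (HOXD1, HOXD3, HOXD9 and HOXD11), and 33 had no peak in either list. Among all protein-coding genes, 3.16% were higher in KD and 22.9% higher in EV. Of the 5694 protein-coding genes of at most 10 kb, 174 were higher in KD and 302 higher in EV. A covered share of 10% or more was reached by 5 members in EV, 5 in KD and 0 in the list without a genotype, against 2.75%, 1.55% and 0.774% of protein-coding genes. Among protein-coding genes of at most 10 kb, 5.53%, 4.67% and 1.81% reached it. The HOX share was 12.8% in both EV and KD (interval 4.30 to 27.4). The EV and KD shares of the short genes lay inside that interval. The HOX members at that level were HOXD1, HOXD9, HOXD11 and HOXD12 in both, with HOXD3 in EV and HOXD10 in KD.

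The list without a genotype had no peak in any of the 4 spans. Its nearest peak to HOXD lay 324.2 kb away, and the nearest to HOXA 1343 kb away. Of KD peaks that EV also had, in the strength range of the HOXD peaks, 49.3% were overlapped by this list (2693 of 5463), and at HOXD 0 of 7 were. The list was sparse at gene starts in general, with peaks at 0.359% of promoters. The part that depth or detection has in this was not tested.

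Genes that work with HOX proteins or regulate the clusters are given beside the shares of all protein-coding genes with a peak, 24.5% in EV, 11.5% in KD and 7.26% in the list without a genotype. Of 9 HOX cofactor genes of the PBX, MEIS and PKNOX families, which encode the homeodomain partners of HOX proteins on DNA, 7 had an EV peak and 2 a KD peak. That is 77.8% in EV (interval 40.0 to 97.2) and 22.2% in KD (interval 2.81 to 60.0). The share of all protein-coding genes lay below the cofactor interval in EV and inside it in KD. These shares count any peak in the body and were not matched for gene length. By length, peaks covered 0.512% of cofactor bodies in EV and 0.229% in KD, against 0.684% and 0.201% for all protein-coding genes. The largest covered shares of cofactor gene bodies were 3.28% at MEIS3, 1.60% at PKNOX1 and 1.11% at PBX4, all in EV with no KD peak. MEIS1 and MEIS2, the latter named after its values were seen, had a peak in both lists, with 0.715% and 0.864% in EV and 0.881% and 0.838% in KD. Of 36 Polycomb and trithorax genes, which encode the classical repressors and activators of HOX clusters, 13 had an EV peak (36.1%, interval 20.8 to 53.8), 5 a KD peak (13.9%, interval 4.67 to 29.5) and 1 a peak of the list without a genotype (2.78%, interval 0.0703 to 14.5). All 3 shares of all protein-coding genes lay inside these Polycomb and trithorax intervals. The largest shares were 6.82% at PCGF6, 6.21% at EZH1 and 5.63% at CBX7 in EV, and EZH1 had 1.08% in KD while the other 2 had no KD peak. No cofactor, Polycomb or trithorax gene reached 10% of its body, a level that 2.75% of all protein-coding genes reached in EV and 1.55% in KD. These genes are long beside HOX genes, with median bodies of 138745 bp for the cofactors and 38410.5 bp for the Polycomb and trithorax genes. The median for all protein-coding genes is 24115 bp.

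Homeobox genes outside the clusters and clustered protocadherin genes were set beside HOXD, without a test. Of 127 homeobox genes outside the clusters, 48 (37.8%) had a peak in EV, 38 (29.9%) in KD and 7 (5.51%) in the list without a genotype, where all protein-coding genes had 24.5%, 11.5% and 7.26%. A covered share of 10% or more was reached by 26 of them in EV (20.5%) and 25 in KD (19.7%), against 2.75% and 1.55% of all protein-coding genes. Among protein-coding genes of at most 10 kb, 5.53% and 4.67% reached it, and these homeobox genes have a median body of 6491 bp. TLX3 (72.5% in EV and 100% in KD), HMX2 (87.5% and 76.8%), BARX1 (no EV peak and 72.5% in KD) and POU3F4 (57.8% and 16.6%) had the largest shares. Peaks covered 2.82% of the homeobox gene bodies in EV and 2.22% in KD, and 2.14% and 1.93% of the bodies of all 39 HOX genes. For the 9 HOXD genes, singled out for their peaks, the values were 11.1% and 10.0%. For the 53 clustered protocadherin genes, a tandem family of neuronal adhesion genes, they were 11.8% and 6.44%. Protocadherin bodies overlap and share peaks, and 29 of the 53 had a peak in the list without a genotype, where HOXD had none.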

How the data were processed

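H3K9me3 ChIP-seq of HEK293T cells was deposited as 3 broad peak lists without headers. Bowtie2, MACS2 and build GRCh38 are named per the submitters' processing notes, without versions. The sources used here do not give calling options, control libraries, filters or pooling. Each peak's fold enrichment is a ratio over background from the authors' peak caller, and the −log10 p and −log10 q are the authors' as well. No deposited −log10 q lies below 1.

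Peak positions were intersected (at least 1 bp, counting from 1) with gene bodies, promoters and microRNAs of RefSeq GRCh38.p14. Of 39 HOX genes, 20 had a promoter entry. A cluster span runs from its first to its last HOX gene. Python 3.11.15, numpy 2.4.6, pandas 2.3.3, scipy 1.17.1 and matplotlib 3.10.9 were used. Covered bases equalled those of bedtools 2.31.1 for 2000 of 2000 genes on simulated data made from moved EV peaks.

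Named genes are the HOX genes with a peak or flanking one, and up to 4 of each further list by covered share. MEIS2, EVX1, MIR10B, MIR196A2 and HOTAIR fall outside this rule and were named with their values known. Members, lists and alternatives (stricter −log10 q or fold, equal peak numbers, other overlaps, gene bodies and spans) were chosen with earlier results of these data known. Equal peak numbers kept the 12650 strongest EV peaks by −log10 p. Samples were grouped by title, and with 1 library per group no test was run. Input libraries were not analysed here.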

Additional observations from a re-analysis of the deposited data

How the results depend on the processing

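A count was taken as kept when it stayed within 1.5 times the reported one, and a share when it stayed within the reported share's interval, which is wide at 7 to 10 peaks. Any change of the ratio counted as moved. By these limits, 29 of 40 alternative values were kept, 9 moved and 2 changed direction. With a fold enrichment of at least 3, EV had 3 HOX members with a peak, 2 with at least 10% of the gene body covered and 6 peaks in the spans, against 5, 5 and 10 as reported. Members at 10% in EV numbered 3 with equal peak numbers and 3 with 2 kb added to each gene body. At 20% of the gene body there were 2 in EV and 3 in KD. The KD/EV ratio of covered length over the 4 spans was 0.907. It was 0.881 with a −log10 q of at least 2 and 0.749 with 20 kb added to each span, and passed 1 with a fold enrichment of at least 3 (1.53) and with equal peak numbers (1.34), both of which remove more EV than KD peaks here. The share of EV peaks overlapped by KD stayed between 50% and 85.7%, and that of KD peaks overlapped by EV between 66.7% and 100%. No paired analysis was possible because each group has 1 library. The depth behind the lists is unknown, so a missing peak is not an absent mark.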

Other observations

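Within 200 kb of the HOXD cluster, EV had 4 peaks on the side of HOXD13, which faces the digit enhancers of these genes, and 0 on the side of HOXD1, and KD had 1 and 0. That is 1.0 EV peaks and 0.25 KD peaks per 100 kb, where the whole of chromosome 2 had 0.596 and 0.266. The EV peak chr2:176067183-176067934, 19.6 kb from the cluster, had a fold of 5.10 and a −log10 p of 8.12, both above those of every EV peak inside HOXD. The KD peak chr2:176067801-176068097 overlapped it by 134 bp. EVX2, a homeobox gene next to HOXD13, was covered to 18.9% in EV and had no KD peak. LNPK, an endoplasmic reticulum protein gene, had 0.584% in EV and no KD peak. Within 1 Mb of HOXD, EV had 14 peaks, KD 2 and the list without a genotype 5.

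CBX5, a gene flanking HOXC that encodes a heterochromatin protein binding H3K9me3, was covered to 3.60% in EV and had no KD peak. EVX1, the homeobox neighbour of HOXA13, had no peak in any list. The list without a genotype had 0 peaks within 1 Mb of HOXA. Within 200 kb of any cluster its single peak was in TTLL6, a tubulin-modifying enzyme gene beyond HOXB13, covering 0.571% of that gene.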
